A study of Homo sapiens with 4 samples.

Results

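The 10 genes described here, ECT2, RACGAP1, PRC1, ANLN, CEP55, TPX2, NUSAP1, ASPM, HMMR and CKAP2, encode proteins that build the mitotic spindle or split the cell after mitosis. They were chosen by name, through NCBI Gene identifiers and current symbols, out of 23459 genes listed in each library, and all 10 were found and passed the CPM filter that 12559 genes passed. Their RNA was measured in hTERT RPE-1 cells, a telomerase-immortalized, non-cancerous human line from the retinal pigment epithelium with a wild type genotype. The cells had been arrested in G0/G1 by 48 h in medium with 0.1% serum and then received 200 μM merbarone, a catalytic inhibitor of type II DNA topoisomerases (TOP2), for 4 h (2 replicates) or 8 h (2 replicates). All 4 libraries therefore share the serum starvation and the drug, and they differ by the time of exposure. Untreated cells were not analysed here, so time in merbarone cannot be told apart from further time in low serum.

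The spindle is assembled from microtubules that grow from the poles and around the chromosomes, and motors and bundling proteins sort them into a bipolar array. After the chromosomes part, a bundle of antiparallel microtubules, the central spindle, marks the middle of the cell, a ring of actin and myosin closes there, and the last bridge is cut at the midbody. Many of these transcripts are made in late S, G2 and M phases and are low in resting cells. The DREAM complex represses many of them in quiescence by binding an element called CHR (cell cycle genes homology region) close to the start, often with CCAAT boxes nearby.

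The libraries held from 8064450 to 10324697 counts, the fewest in replicate 2 at 8 h, and the 10 genes held between 108 and 3462 counts in a library. Of the epithelial and pigment epithelium markers, KRT8, KRT18, TJP1, MITF and OTX2 were counted in every library, while RPE65, RLBP1 and BEST1, which mark mature pigment epithelium, had at most 7 counts and TYR had 0, a count that allows up to 3 in each library. Of the other pigment epithelium markers, RDH5 had 75, 71, 53 and 43 counts, PMEL between 7 and 12, and TTR at most 1. Markers of leukocytes, endothelium and other epithelia (PTPRC, PECAM1, CDH5 and EPCAM) had at most 8 counts in any library. Since the replicates are 2 per time, an exact permutation test of a single gene cannot give a p below 0.3333, and the adjusted p-values below come from edgeR's quasi-likelihood test on all 12559 genes, which shares the estimate of spread across genes.

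Promoter sequences are shown because the 10 transcripts moved in one direction, and whether any promoter element has a part in that was not tested. RefSeq windows, on GRCh38.p14, of 300 bases (250 before the annotated start and 50 after it) were found for 8 of the 10 genes: ECT2 (2 overlapping windows), PRC1, ANLN, CEP55, NUSAP1, ASPM, HMMR and CKAP2. They were searched on both strands for CHR (TTTGAA or TTCGAA), the CCAAT box (CCAAT) and E2F motifs (TTCCCGC or TTGGCGC); the last shares its TTGG with a reversed CCAAT box and can overlap one. The lines below give the 250 bases before the start, 5′ to 3′ on the strand of the gene, with motif matches in capitals. HMMR is shown for the largest fall of the 10 genes, ANLN and PRC1 for a CHR match at the same distance from the start, ASPM for the smallest fall, and CKAP2 for holding none of the motifs.
HMMR, chr5:163460382-163460631, plus strand: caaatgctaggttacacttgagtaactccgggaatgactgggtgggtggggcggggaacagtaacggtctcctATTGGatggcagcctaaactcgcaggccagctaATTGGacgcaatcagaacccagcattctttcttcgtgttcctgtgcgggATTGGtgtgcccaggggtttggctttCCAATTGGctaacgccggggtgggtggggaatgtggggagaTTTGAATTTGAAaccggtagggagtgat
ANLN, chr7:36389612-36389861, plus strand: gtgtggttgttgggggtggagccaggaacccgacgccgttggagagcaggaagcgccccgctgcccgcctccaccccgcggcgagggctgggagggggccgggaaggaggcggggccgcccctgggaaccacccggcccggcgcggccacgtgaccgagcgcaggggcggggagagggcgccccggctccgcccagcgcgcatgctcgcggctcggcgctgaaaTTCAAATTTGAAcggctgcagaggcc
PRC1, chr15:90994536-90994785, minus strand: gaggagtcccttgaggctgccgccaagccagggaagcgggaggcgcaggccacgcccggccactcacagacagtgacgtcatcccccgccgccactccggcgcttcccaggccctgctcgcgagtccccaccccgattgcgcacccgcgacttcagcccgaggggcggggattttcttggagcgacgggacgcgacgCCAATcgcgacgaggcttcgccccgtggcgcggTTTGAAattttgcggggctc
ASPM, chr1:197146670-197146919, minus strand: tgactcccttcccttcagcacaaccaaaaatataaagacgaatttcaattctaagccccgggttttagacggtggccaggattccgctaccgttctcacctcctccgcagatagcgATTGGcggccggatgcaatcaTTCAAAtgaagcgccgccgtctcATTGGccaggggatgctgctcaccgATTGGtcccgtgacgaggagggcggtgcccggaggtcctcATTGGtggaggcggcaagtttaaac
CKAP2, chr13:52455738-52455987, plus strand: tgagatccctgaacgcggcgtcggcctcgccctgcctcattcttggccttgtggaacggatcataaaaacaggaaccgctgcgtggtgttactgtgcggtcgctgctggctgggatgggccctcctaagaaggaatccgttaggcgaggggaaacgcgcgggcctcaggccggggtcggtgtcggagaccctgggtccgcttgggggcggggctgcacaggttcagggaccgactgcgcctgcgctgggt

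A CHR match was present in 7 of the 8 genes with a window (all but CKAP2), which is 87.5%, against 19.5% of the 27305 genes in the promoter table and 15.5% of its 10183 genes that were tested here. HMMR held a pair of adjacent CHR matches that began 28 and 22 bases before the start, and ANLN a pair at 26 and 20 bases, the first of them on the opposite strand. In PRC1 the match began 20 bases before the start, in CEP55 at 116 and 3 bases, and in ASPM at 113 bases. NUSAP1 had its match 14 bases after the start. In the first ECT2 window the matches lay 115 bases before and 35 bases after the start, and in the second 242 and 182 bases before its start. The CCAAT box was found in 6 of the 8 genes (75%), all but ANLN and CKAP2, against 39.7% of all genes in the table and 43.4% of the tested ones. A CHR match and a CCAAT box together were found in 6 genes, against 7.85% of all genes and 6.47% of the tested ones. E2F letters were found in 3 genes, ECT2, CEP55 and NUSAP1 (37.5%), against 10.96% of all genes and 17.9% of the tested ones. These are matches of letters in a window and were not tested for binding.

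**Figure D1:**
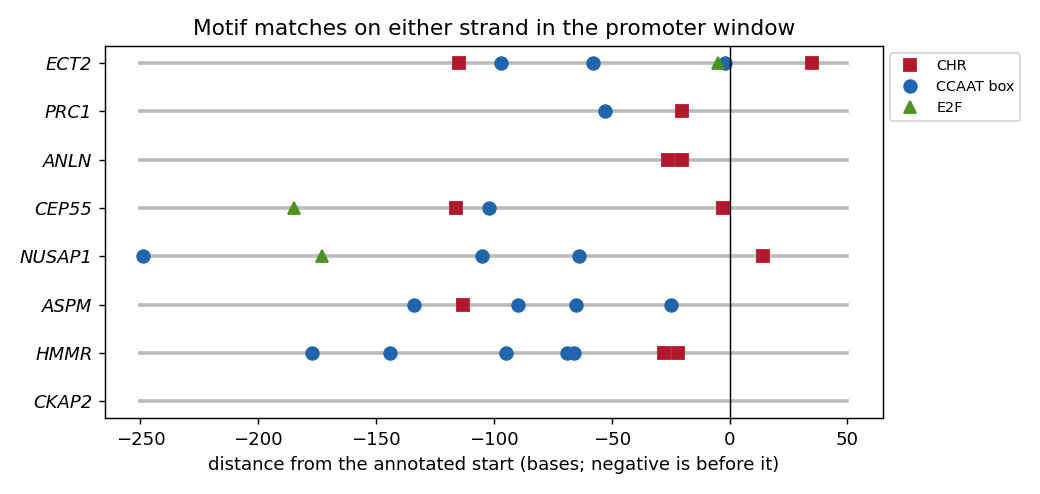
Positions of CHR, CCAAT box and E2F matches in the promoter windows of 8 genes, as the distance in bases of the first base of the match from the annotated start (vertical line). CHR matches lie within 30 bases of the start in PRC1, ANLN, HMMR, CEP55 and NUSAP1, and CKAP2 has no match.

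Between 4 h and 8 h all 10 transcripts fell. With an edgeR adjusted p below 0.05 and a log2 fold change (log2FC, 8 h against 4 h) below −1, which are the study's thresholds for differentially expressed genes (DEGs), 8 of the 10 were DEGs. Of all 12559 tested genes, 3.88% were DEGs in this direction. ASPM and CKAP2 passed the adjusted p but not the fold-change threshold. Without that threshold, 10 of 10 genes were lower, against 18.8% of all tested genes. The median log2FC of the 10 genes was −1.18, beside −0.0024 for all genes tested. Counts were scaled by TMM, the trimmed mean of M-values, which corrects for library composition, and normalized counts below are counts scaled to the mean effective library size. SE stands for the standard error of a log2FC. Both 8 h libraries lay below both 4 h libraries for each of the 10 genes, as they did for 34.9% of all tested genes. RNA was taken from whole cultures, in which fewer cells with a transcript and less of it per cell cannot be told apart.

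Summed over the 10 genes, the TMM-normalized CPM at 4 h was 1388 in replicate 1 and 1373 in replicate 2, and at 8 h it was 652 and 576, so that 44.5% of the 4 h mean was left at 8 h. The replicates at 4 h lay closer together than those at 8 h. Replicate 2 at 8 h was below replicate 1 in 9 of the 10 genes, all but ECT2.

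**Figure D2:**
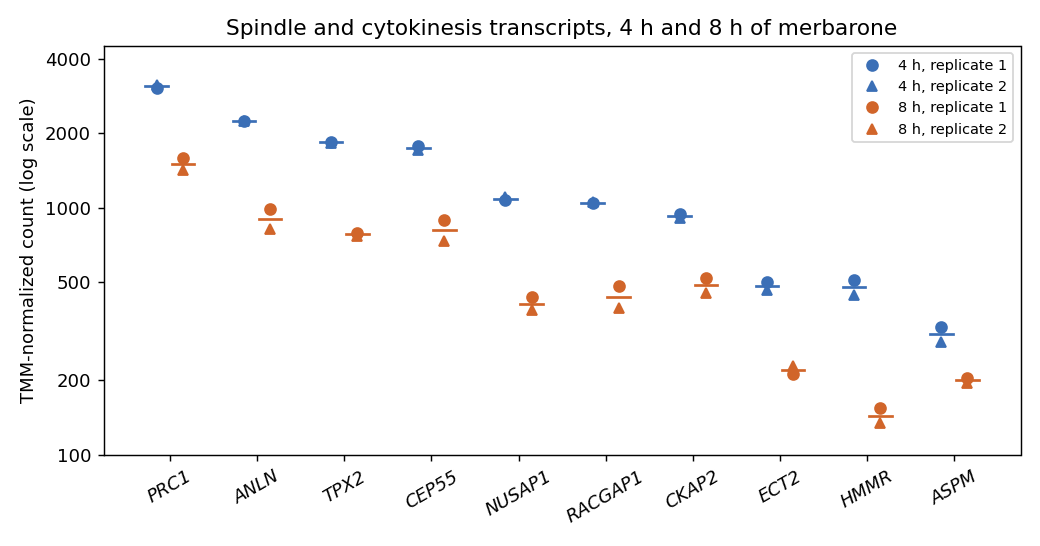
TMM-normalized counts (log scale) of the 10 genes in each library, blue for 4 h and orange for 8 h, with circles for replicate 1, triangles for replicate 2 and bars for the mean. For every gene both 8 h values lie below both 4 h values, with ASPM showing the smallest step and HMMR the largest.

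The spindle assembly genes held both extremes of the change. HMMR encodes a hyaluronan-binding protein that also attaches to spindle microtubules (chromosome 5, 162887209 to 162918947, plus strand, hg19). At 4 h its normalized counts were 509.7 and 443, against 154 and 134 at 8 h. The replicates differed by about the same small step at either time and the times were far apart. It fell 3.29-fold (log2FC −1.72, SE 0.13, adjusted p = 1.12e-08 by edgeR), and 0.565% of all tested genes had a lower log2FC. The antisense gene HMMR-AS1, which overlaps it, was not analysed here.

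NUSAP1, which bundles microtubules close to the chromosomes (chromosome 15, 41612992 to 41673248, plus strand), had the next largest fall. The 4 h libraries held 1073 and 1099 normalized counts and the 8 h libraries 434 and 385. The log2FC was −1.40 (SE 0.10, adjusted p = 2.43e-09 by edgeR). Exons of NUSAP1 overlap those of OIP5 on the opposite strand, where counting without strand could exchange reads. They also overlap those of OIP5-AS1 on the same strand, where strand cannot separate the reads. Another protein-coding gene annotated on the same strand overlaps NUSAP1 too and was not analysed here. OIP5 had 157, 120, 32 and 31 counts in the 4 libraries, and OIP5-AS1 had 217, 199, 203 and 136, against at least 310 for NUSAP1. The log2FC was −1.81 for OIP5 (edgeR adjusted p = 6.33e-06) and 0.01 for OIP5-AS1 (edgeR adjusted p = 0.957).

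TPX2 activates Aurora A kinase (AURKA) and promotes microtubule growth around chromosomes (chromosome 20, 30327074 to 30389608, plus strand). It had the steadiest replicates of the 10 genes at 8 h. Normalized counts of 1845 and 1821 at 4 h stood against 792 and 765 at 8 h, a log2FC of −1.23 (SE 0.08, adjusted p = 2.09e-09 by edgeR).

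CKAP2, a microtubule-stabilizing protein of the spindle (chromosome 13, 53029564 to 53050763, plus strand), changed less. It had 939.6 and 907 normalized counts at 4 h, and 519.5 and 451 at 8 h, so the times did not overlap. Its log2FC of −0.92 (SE 0.10, adjusted p = 4.83e-07 by edgeR) was short of the fold-change threshold, which it passed, at −1.03, with library size alone as scaling and, at −1.03, without replicate 1 at 8 h.

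ASPM, a protein of the spindle poles whose loss causes small brain size (chromosome 1, 197053251 to 197115824, minus strand), had the smallest fall of the 10 genes. Its 4 h values were 329 and 286 normalized counts, against 206 and 195 at 8 h, with the replicates closer at 8 h than at 4 h. The log2FC was −0.62 (SE 0.13, adjusted p = 0.0011 by edgeR), and 11.2% of all tested genes had a lower log2FC. The adjusted p was 0.0373 without replicate 1 at 4 h and ranged from 2.76e-05 to 0.00626 over the other alternatives that test for any change, so the call of a fall was kept and the fold-change threshold was never reached.

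The genes of the central spindle fell by similar amounts. PRC1 crosslinks antiparallel microtubules (chromosome 15, 91509270 to 91538859, minus strand) and had the most reads of the 10 genes. Normalized counts were 3054 and 3139 at 4 h, against 1584 and 1413 at 8 h. The log2FC of −1.05 (SE 0.08, adjusted p = 1.06e-08 by edgeR) was just past the threshold, and without replicate 2 at 8 h it was −0.97. The antisense gene PRC1-AS1 overlaps it and had at most 8 counts in any library. A protein-coding gene annotated on the same strand also overlaps PRC1 and was not analysed here.

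RACGAP1 is the GTPase-activating subunit of centralspindlin, the complex that bundles the central spindle and recruits ECT2 (chromosome 12, 50370706 to 50426919, minus strand). The 4 h values were 1039 and 1049.8 normalized counts and the 8 h values 479.7 and 394, with closely matched 4 h replicates and a wider gap at 8 h. The log2FC was −1.25 (SE 0.10, adjusted p = 1.78e-08 by edgeR). The gene AQP6, which overlaps it on the opposite strand, had at most 5 counts. Reads that mapped to both RACGAP1 and its pseudogene copy RACGAP1P1 were removed, since only reads with a single position were kept. RACGAP1P1 had between 43 and 96 counts, and its own change did not pass (edgeR adjusted p = 0.11).

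ECT2 encodes the exchange factor that activates the GTPase RHOA at the middle of the dividing cell (chromosome 3, 172468472 to 172539264, plus strand). It had 501 and 462 normalized counts at 4 h, against 213 and 229.9 at 8 h, the one case in which replicate 2 was the higher at 8 h. The log2FC was −1.12 (SE 0.12, adjusted p = 4.71e-07 by edgeR).

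ANLN and CEP55 act later. ANLN, anillin, ties actin, myosin and septins together in the ring (chromosome 7, 36429430 to 36493400, plus strand). Its 4 h replicates were almost equal, at 2239 and 2236 normalized counts, and its 8 h replicates were 983 and 823. The log2FC was −1.31 (SE 0.09, adjusted p = 2.5e-09 by edgeR). MATCAP2, which overlaps it on the opposite strand, had between 66 and 90 counts. CEP55 brings the membrane-cutting ESCRT proteins to the midbody (chromosome 10, 95256369 to 95288849, plus strand). At 4 h it had 1777 and 1716 normalized counts, against 889 and 729 at 8 h. The log2FC was −1.11 (SE 0.09, adjusted p = 3.2e-08 by edgeR), and it was −0.97 without replicate 2 at 8 h. Without that library, the median log2FC of the 10 genes was −1.15, and PRC1, CEP55, CKAP2 and ASPM were short of the fold-change threshold. Without replicate 1 at 8 h the median was −1.26, and of the 10 genes only ASPM was short of that threshold. In a glmTreat test of whether the fall exceeds a log2FC of 1, ANLN, NUSAP1 and HMMR passed, 3 of the 10 genes, against 0.462% of all tested genes.

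**Figure D3:**
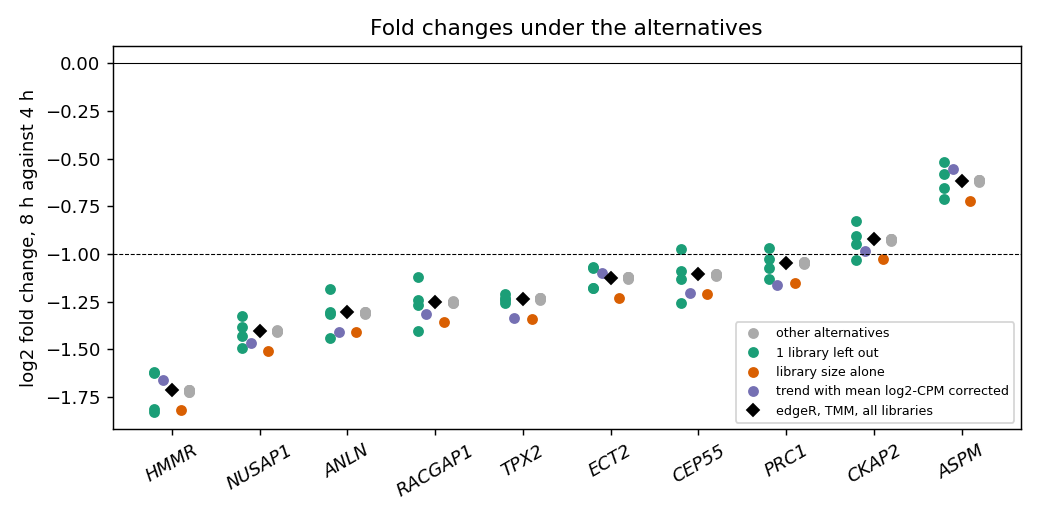
Fold change (log2, 8 h against 4 h) of the 10 genes in the reported fit (black diamonds) and under the alternatives (coloured points), with the fold-change threshold dashed. All values lie below 0. Those of PRC1, CEP55 and CKAP2 fall on both sides of the threshold, and ASPM stays above it.

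Levels were compared between genes per length, as RPKM from the TMM-normalized CPM and the union of annotated exons. At 4 h the order was PRC1 with 58.5, CEP55 with 55.4, TPX2 with 53.0, ANLN with 38.9, NUSAP1 with 31.4, RACGAP1 with 24.3, CKAP2 with 21.2, HMMR with 12.6, ECT2 with 9.13 and ASPM with 2.67, as means of 2 libraries. No neighbours in this order had overlapping replicates at 4 h. At 8 h the levels ran from 28.3 ± 2.29 (SD, n = 2) for PRC1 to 1.74 ± 0.06 (SD, n = 2) for ASPM. CKAP2 passed RACGAP1 and ECT2 passed HMMR, but in each of these pairs the 8 h replicates overlapped, as they also did for PRC1 and CEP55 and for NUSAP1 and CKAP2. With the length of the longest transcript in place of the union of exons the 4 h order was the same, and at 8 h NUSAP1 came below RACGAP1 and CKAP2. Reads across splice junctions were lost in the mapping, which lowers the level of genes with short exons by an amount not measured here.

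To compare the 10 genes without any scaling between libraries, each count was divided by the geometric mean of the counts of the other 9 in the same library. For HMMR the log2 ratios were −1.19 and −1.35 at 4 h, against −1.85 and −1.90 at 8 h, so that HMMR lost 0.61 on the log2 scale against the rest. ASPM moved the other way, from −1.89 and −2.06 at 4 h to −1.39 and −1.30 at 8 h, a gain of 0.63. CKAP2 gained 0.27 and PRC1 gained 0.14, while the ratio of NUSAP1 fell by 0.26 and that of ANLN fell by 0.15, with no overlap between the times in any of these. For ECT2, RACGAP1, CEP55 and TPX2 the ratios at the different times overlapped. Against the median of the other 9 genes in place of their geometric mean, the change was −0.56 for HMMR, 0.55 for ASPM, 0.39 for CKAP2, 0.22 for PRC1, −0.30 for NUSAP1 and −0.05 for ANLN, so that of ANLN in particular depended on the reference. These differences between genes are described without a test, since the exact permutation test of 2 libraries against 2 cannot go below 0.3333.

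**Figure D4:**
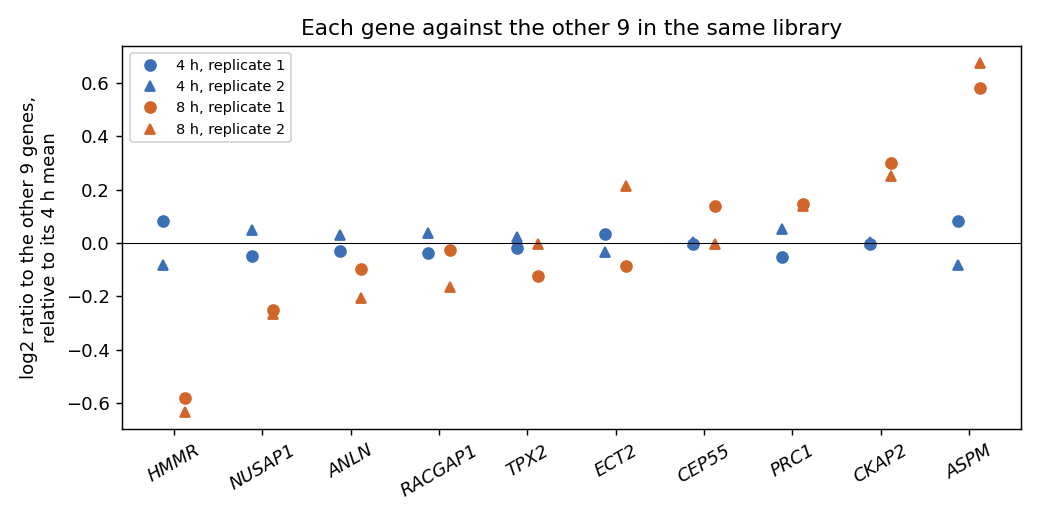
Log2 ratio of each gene to the geometric mean of the other 9 in the same library, drawn relative to its own 4 h mean (line at 0), blue for 4 h and orange for 8 h. HMMR lies lowest and ASPM highest at 8 h, while ECT2, RACGAP1, CEP55 and TPX2 overlap between the times.

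Other genes of spindle assembly and cytokinesis were described through 6 lists. Among all tested genes, 18.8% were lower at 8 h at an adjusted p below 0.05, 19.9% were higher, and 3.88% were DEGs lower at 8 h. In the list of central spindle motors, passenger complex subunits and their kinases, 11 of 11 tested genes were lower at 8 h, 5 of them DEGs, with a median log2FC of −0.92. KIF20A, a kinesin that carries the passenger complex to the central spindle, fell from 927 ± 7.94 to 225 ± 19.9 (normalized counts ± SD over 2 replicates; log2FC −2.04, adjusted p = 2.52e-10 by edgeR). The mitotic kinase PLK1 had a log2FC of −1.63, the kinesin KIF4A, which binds PRC1, −1.53, and KIF23, the motor subunit of centralspindlin and partner of RACGAP1, −1.33 (edgeR adjusted p of 1.67e-07 or less for each). AURKB, INCENP, BIRC5 and CDCA8, the passenger complex itself, had log2FC of −0.60, −0.64, −0.92 and −0.51.

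In the list of spindle motors and regulators, 16 of 19 genes were lower, 10 of them DEGs, with a median log2FC of −1.07. DLGAP5, a microtubule-bundling partner of AURKA, fell from 410.3 ± 17.5 to 102 ± 0.27 (normalized counts ± SD over 2 replicates; log2FC −2.01, adjusted p = 2.66e-09 by edgeR). The log2FC was −1.77 for KIF11, the motor that pushes the poles apart, −1.60 for AURKA, the kinase that TPX2 activates, and −1.60 for the kinesin KIF15. CLTC, NUMA1 and KIF18A did not pass the test. CKAP2L, the paralog of CKAP2, fell by 0.82 on the log2 scale (edgeR adjusted p = 4.9e-06), next to 0.92 for CKAP2.

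The augmin and gamma-tubulin list, whose products nucleate microtubules at the poles and along existing ones, was mixed, with 9 of 20 genes lower, 2 higher and 9 not passing, and a median log2FC of −0.32. TUBGCP5 was its DEG, with a log2FC of −1.08 (edgeR adjusted p = 4.33e-05). That log2FC was −0.97 after the trend correction, −0.94 without replicate 2 at 4 h and −0.99 without replicate 2 at 8 h. These values were short of the fold-change threshold. The augmin subunit HAUS1 fell by 0.87 on the log2 scale, and its log2FC passed the threshold, at −1.05, without replicate 1 at 8 h. MZT2B and MZT2A, small subunits of the gamma-tubulin ring, rose by 0.92 and 0.90, but these are close copies of each other and reads with more than 1 position were removed. The replicates of MZT2B at 8 h lay apart, at 504 and 750.5 normalized counts, and its log2FC was 1.18 without replicate 1 and 0.61 without replicate 2 at 8 h. That of MZT2A was 1.07 without replicate 2 at 4 h and 1.01 after the trend correction, both past the fold-change threshold.

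The list of RAN and nuclear import genes covers the system that holds and releases TPX2 and other spindle factors. Of its 9 genes, 3 were lower and 1 was higher, with a median log2FC of −0.21. KPNA2, the importin that holds TPX2, had a log2FC of −0.86, XPO1 −0.51 and KPNB1 −0.41, and RAN itself had −0.21 (edgeR adjusted p = 0.0507). NUTF2, the import factor of RAN, was the higher gene, at 0.24 (edgeR adjusted p = 0.044). Its adjusted p was 0.146 with DESeq2, 0.271 with library size alone, and 0.244, 0.142 and 0.0987 by edgeR without replicate 1 or 2 at 4 h or replicate 2 at 8 h, so it did not pass in these.

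The contractile ring and septin list held 7 lower genes, 1 higher and 12 that did not pass, of 20 tested, and no DEG, with a median log2FC of −0.07. The formin DIAPH3 had a log2FC of −0.96, the non-muscle myosin MYH10 −0.61 and the formin DIAPH1 −0.36, and SEPTIN11 rose by 0.39 (edgeR adjusted p of 0.00237 or less for each). DIAPH3 passed the fold-change threshold in some fits. Its log2FC was −1.06 with library size alone, −1.02 without replicate 2 at 4 h and −1.03 without replicate 1 at 8 h. Without replicate 1 at 4 h the adjusted p of DIAPH1 was 0.0644. RHOA, the GTPase that ECT2 activates, had 10774 ± 74.9 normalized counts at 4 h and 11448 ± 770 at 8 h (SD over 2 replicates; log2FC 0.09 with SE 0.07, adjusted p = 0.334 by edgeR).

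In the ESCRT list, which holds ESCRT subunits and other genes of the final cut, 14 of 17 genes did not pass. In it 2 genes were higher and 1 was lower, with a median log2FC of 0.15. CHMP1B, an ESCRT-III subunit, rose from 1297 ± 148 to 3004 ± 22.6 (normalized counts ± SD over 2 replicates; log2FC 1.21, adjusted p = 3.19e-09 by edgeR) and was a DEG. CHMP4C, which delays the cut when chromatin is caught in the bridge, rose by 0.56 on the log2 scale (edgeR adjusted p = 0.0142), CHMP1A fell by 0.28 (edgeR adjusted p = 0.0176), and CHMP4A had a log2FC of 0.30 that did not pass (edgeR adjusted p = 0.225). CHMP4C and CHMP1A did not pass with DESeq2 (adjusted p = 0.0774 and 0.0609). By edgeR without replicate 1 at 4 h, replicate 2 at 4 h or replicate 1 at 8 h, their adjusted p was 0.0973, 0.0783 and 0.0596 for CHMP4C and 0.067, 0.134 and 0.168 for CHMP1A. Over all tested genes, 19.9% were higher at this adjusted p. TOP2A encodes a type II topoisomerase, the class of enzyme that the drug inhibits. Its log2FC was −1.10 (SE 0.08, adjusted p = 1.06e-08 by edgeR), between those of CEP55 and PRC1.

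**Figure D5:**
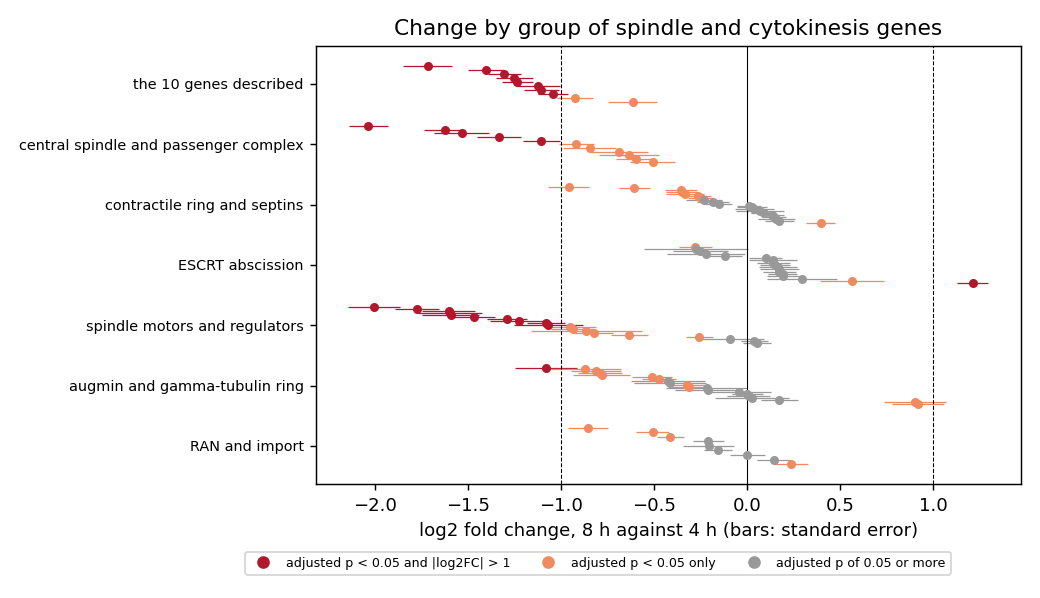
Fold change (log2, 8 h against 4 h) with its standard error for the 10 genes and for the tested genes of 6 lists, coloured by whether both thresholds, only the adjusted p or neither was passed. The 10 genes and the central spindle list lie entirely below 0, while most genes of the ESCRT and contractile ring lists lie near 0.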

How the data were processed

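RNA-Seq libraries of 4 cultures were used, grouped by the time given in their titles. Per the labels and the methods, the authors prepared the libraries with a stranded mRNA kit, mapped the reads to hg19 with Bowtie (version 1.2.0 in the submitters' processing notes), kept reads with a single position, and deposited raw counts per gene, which were used as deposited. The gene annotation, the counting tool and its use of strand are not given in the sources used here. Genes without a CPM over 1 in 2 or more libraries were removed, TMM factors were calculated, and 8 h was compared with 4 h in edgeR 4.0.16 (R 4.3.3) by its quasi-likelihood test, with time as the only term and Benjamini-Hochberg adjustment over all 12559 genes. The standard error is the size of the log2FC divided by the square root of F. Limma-Voom (limma 3.58.1), DESeq2 1.42.0, glmTreat, other scalings and filters, a replicate block, offsets that remove each library's trend with abundance, and leaving out each library were alternatives.

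Symbols of 23308 genes came from the RefSeq table of GRCh38.p14, and positions and lengths from GENCODE on GRCh37 through the symbol. The genes, the lists and the motifs were chosen with earlier results of these data known. Named genes were the 10 members, TOP2A and, in each list, the 4 with the largest absolute log2FC among tested genes that reached a mean of 100 normalized counts at either time. Other genes were named after their values were seen: the passenger complex subunits, CLTC, NUMA1, KIF18A, CKAP2L, RAN and RHOA. On simulated counts for 12462 genes, 200 of them changed by a log2FC of 1.5, the edgeR test recovered 96.5% with 0 false calls. A call there needed both an adjusted p below 0.05 and an absolute log2FC above 1. The simulated spread was the one fitted to these libraries, and smaller changes or calls by adjusted p alone were not examined. A further marker gene is not reported here. The p-values rest on 2 replicates per time and on an estimate of spread shared across genes.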

Additional observations from a re-analysis of the deposited data

How the results depend on the processing

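All 10 genes stayed lower at 8 h, at an adjusted p below 0.05, in the edgeR, Limma-Voom and DESeq2 fits, with every scaling and filter tried, in the trend correction and in each fit without 1 library. The number of DEGs among them was 8 in most fits of all 4 libraries and 9 with library size alone. The median log2FC of the 10 genes ran from −1.26 to −1.15 with 1 library left out. A glmTreat test against a log2FC of 1 called 3. With 1 library left out, the log2FC ran from −1.03 to −0.83 for CKAP2, from −1.13 to −0.97 for PRC1 and from −1.26 to −0.97 for CEP55. Library size alone moved the median of all genes to −0.11 and that of the 10 genes to −1.29, with CKAP2 at −1.03. The DEGs over all genes were 182 higher and 487 lower with TMM, 125 and 641 with library size alone, and 263 and 338 after the trend correction. With the replicate number as a block, the 10 genes gave 8 DEGs and a median of −1.18. In that fit 498 of the 12559 tested genes were DEGs lower at 8 h. Deviations of same-numbered libraries had a correlation of 0.04 over all tested genes and 0.11 over those with a mean count of at least 100. Nothing in the labels pairs them.

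Counts in the lists moved in some fits, and the cause was not tested. In the contractile ring list, 11 were lower after the trend correction and 2 higher with the block, and with 1 library left out from 4 to 9 were lower and from 1 to 3 higher. In the ESCRT list, DESeq2 gave 0 lower and 1 higher, and leaving out 1 library gave 0 to 1 lower and 1 to 3 higher. In the RAN list, 5 were lower with library size alone and after the trend correction, and 3 to 5 with 1 library left out. Its higher gene was lost (0) in DESeq2, with library size alone, in both other filters and after the trend correction, and the number was 0 to 1 with 1 library left out. E2F letters were in 1 of the 8 genes (12.5%) within the 150 bases nearest the start, against 6.04% of all genes in the table and 9.85% of the tested ones. In that shorter window a CHR match was in 6 genes (75%, against 6.66% of the tested ones) and a CCAAT box in 5 (62.5%, against 29.1%). Both were found together in 4 genes (50%, against 2.01% of the tested ones). The within-library ratio of TPX2 changed sign, from −0.06 to 0.03, against the median of the other genes.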
